A study of Mus musculus with 7 samples.

Results

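The 33 genes described here mark T cells and innate lymphoid cells, the lymphocyte relatives of natural killer (NK) cells, and 30 of them were analysed among 19752 genes of the array. They were chosen by name from a fixed list, each through the brightest probe that carries its symbol alone. Lck, Tcf7 and Il1rl1 were not analysed here. RNA of spleen cells from male C57BL/6 mice aged 6 weeks was measured on 7 arrays (Affymetrix Mouse Gene 1.0 ST), which the submitters re-analysed from an earlier series. NK cells had been enriched with an EasySep negative selection kit, in which unwanted cell types are labelled and removed, and NK1.1 is given as their phenotype marker. The cells were cultured in vitro for 8 h with interleukin 2 (IL2, 250 U/ml; 4 arrays, replicates 1 to 4) or left untreated (3 arrays, replicates 2 to 4), with no genetic change in either group. Whether the replicates are separate mice or cultures is not stated, and each p-value therefore reflects only the spread among these arrays, which may be technical. The series asks how IL2 changes expression in cultured NK cells.

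T cells recognise antigen through a T cell receptor that signals through the CD3 chains. CD4 or CD8 co-receptors bring the kinase LCK to it, and adaptors such as LAT pass the signal on. NK cells carry no T cell receptor, yet share several of these genes, among them Cd2, Cd7, Thy1 and much of the signalling machinery. Innate lymphoid cells also lack antigen receptors and are known for cytokine receptors and transcription factors such as RORα. T cells in an NK cell preparation would bring the CD3 and co-receptor transcripts with them.

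IL2 arrays differed from untreated arrays in few of these genes. Thy1, the surface glycoprotein CD90 of T cells and activated lymphocytes, rose 7.47-fold, and Skap1, an adaptor that links antigen receptors to integrin adhesion, rose 1.86-fold. Cd7, a surface molecule shared by T and NK cells, was 3.60-fold lower. Of the 30 genes, 2 were called higher and 1 lower, and 27 did not pass the test (limma, Benjamini-Hochberg adjusted p under 0.05 over all genes, here named a call). Over all genes tested, 2.08% were called higher and 0.901% lower, and whether the list differs from them was not tested. Calls in either direction came to 3 of 30, beside 2.98% of all genes. At an unadjusted p under 0.05, 3 of the 30 were higher and 2 lower, 5 in all, beside 8.81%, 4.67% and 13.5% of all genes. The median log2 fold change of the 30 was 0.00 (15 positive and 15 negative), and that of all genes was -0.01 (45.6% positive). Quantile normalizing the arrays again changed the split of calls over all genes from 410 higher and 178 lower to 694 and 577. Single arrays also moved the count of genes called higher, to 178 and 162 when untreated replicate 3 or 4 was left out, and to 134, 144 and 159 for IL2 replicates 2, 3 and 4. The count called lower went to 79 when untreated replicate 4 was left out and to 65, 90 and 104 for the same IL2 replicates.

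**Figure D1:**
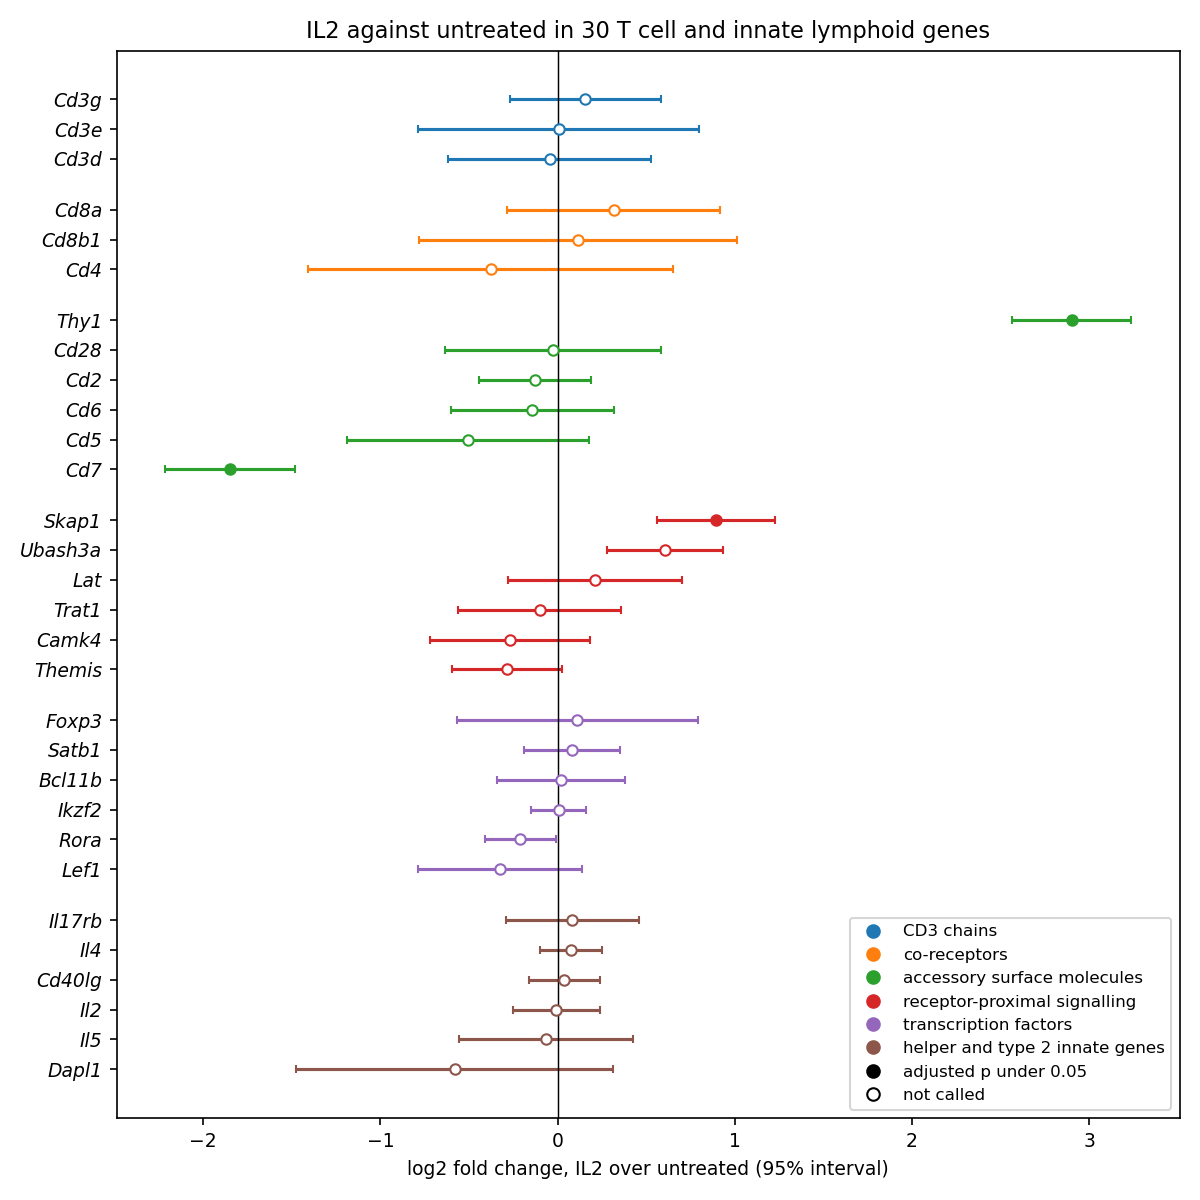
Log2 fold change of IL2 over untreated for the 30 genes, grouped by role, with 95% intervals of the limma fit (n = 4 against 3 arrays); filled points passed the adjusted p threshold of 0.05. Thy1 at 2.90, Skap1 at 0.89 and Cd7 at -1.85 are the filled points.

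Among the accessory surface molecules, Thy1 and Cd7 moved in opposite directions. Thy1 had log2 intensities of 8.09, 8.12 and 8.45 in untreated replicates 2, 3 and 4. It had 10.81, 11.19, 11.31 and 11.17 in IL2 replicates 1 to 4. Every IL2 array thus lay more than 2 log2 units above every untreated array. This is a difference of 2.90 on the log2 scale (SE 0.15; adjusted p = 0.000149 by limma), and it was 2.95 and 2.91 within the arrays with and without the time in their title. Leaving out each array in turn kept it between 2.83 and 3.02, and it was called each time.

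Cd7 had log2 intensities of 10.78, 10.66 and 10.90 in untreated replicates 2, 3 and 4. It had 8.65, 8.74, 9.24 and 9.11 in IL2 replicates 1 to 4. All IL2 arrays were below all untreated arrays, and the gap between the groups was wider than the range within either. The difference was -1.85 on the log2 scale (SE 0.16; adjusted p = 0.00147 by limma). Dropping any single array moved it only within -1.95 to -1.75, and it stayed called. Within the arrays with and without the time in their title it was -1.60 and -2.09, and neither smaller fit called it (limma adjusted p = 0.0523 and 0.356).

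**Figure D2:**
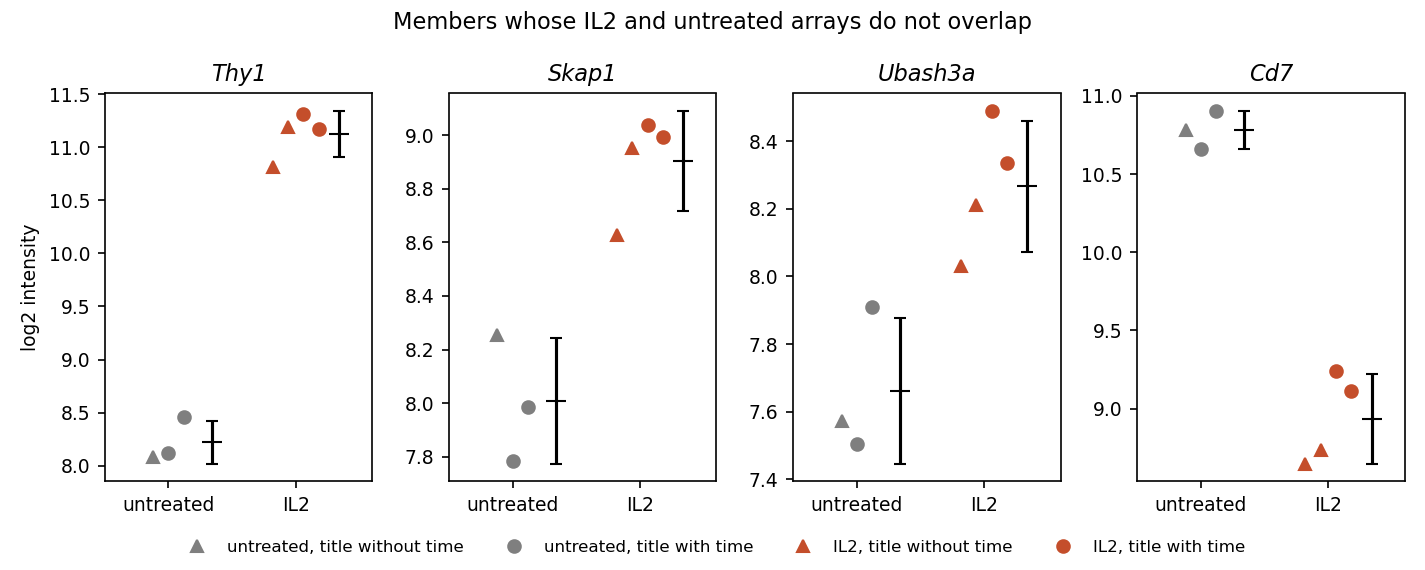
Log2 intensity of Thy1, Skap1, Ubash3a and Cd7 in each array, by group; triangles are arrays whose title lacks the time, circles those whose title gives it, and bars show mean ± SD (n = 3 untreated, 4 IL2). The groups do not overlap in any of the 4 genes, and Cd7 is the gene with the IL2 arrays below.

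The other accessory molecules were not called. Cd2, an adhesion receptor of T and NK cells, had a log2 fold change of -0.13 (95% interval -0.44 to 0.19). Cd28, the co-stimulatory receptor, had -0.03 (-0.64 to 0.58), and Cd6, an adhesion and signalling receptor related to CD5, had -0.14 (-0.60 to 0.32). Cd5, a brake on antigen receptor signalling, had -0.51 (-1.19 to 0.18). The intervals of Cd5 and Cd28 are wide, since both genes differed strongly between arrays of the same group.

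Among the receptor-proximal signalling genes, Skap1 and Ubash3a separated the groups. Skap1 had 8.25, 7.79 and 7.99 in untreated replicates 2, 3 and 4 and 8.63, 8.95, 9.04 and 8.99 in IL2 replicates 1 to 4. All IL2 arrays were above all untreated arrays, with IL2 replicate 1 the nearest to them. The difference was 0.89 on the log2 scale (SE 0.14; adjusted p = 0.0181 by limma). This call ended when any of untreated replicates 3 and 4 or IL2 replicates 2, 3 and 4 was dropped, with limma's adjusted p then 0.0691 to 0.0927. Within the arrays with and without the time in their title the log2 fold change was 1.13 and 0.54.

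Ubash3a encodes STS-2, a regulator that dampens T cell receptor signalling. It had 7.57, 7.50 and 7.91 in untreated replicates 2, 3 and 4 and 8.03, 8.21, 8.49 and 8.34 in IL2 replicates 1 to 4. The groups did not overlap, but the log2 fold change of 0.60 (SE 0.14) missed the threshold at a limma adjusted p of 0.0751. It passed at 0.0376 with title style as a block, at 0.0166 after quantile normalization again, at 0.0462 with each array centred on its median, and at 0.0416 once genes below the median signal were dropped. All IL2 arrays lay above all untreated arrays for Thy1, Skap1 and Ubash3a, 3 of 30 genes, beside 6.25% of all genes. They lay below for Cd7, 1 of 30, beside 3.38%, which makes 4 of 30 apart in either direction, beside 9.63%.

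The remaining signalling genes were not called. Lat, the scaffold of the proximal signal, had a log2 fold change of 0.21 (95% interval -0.28 to 0.70). Themis, needed for thymocyte selection, had -0.29 (-0.60 to 0.03), and Camk4, a calcium-dependent kinase, had -0.27 (-0.72 to 0.18). Trat1, an adaptor that stabilises the T cell receptor complex, had -0.10 (-0.56 to 0.36) and was among the dim genes.

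The CD3 chains, which carry the signal of the T cell receptor, did not separate the groups. The windows around their annotated start sites are shown because the 3 genes are neighbours on 1 chromosome, with Cd3d and Cd3g transcribed away from each other from start sites 1355 bases apart. Ubash3a is shown as the separated gene with a window in the RefSeq table (GRCm38.p6). Each window runs from 250 bases before the start site to 50 after it, 5′ to 3′ on the gene's strand. The windows are Cd3e at chr9:45009562-45009861 (minus strand), Cd3d at chr9:44981536-44981835 (plus), Cd3g at chr9:44980382-44980681 (minus) and Ubash3a at chr17:31207816-31208115 (plus). Capitals mark matches, on either strand, to TTCNNNGAA (STAT), TGTGGT (RUNX), GGAAGT (ETS), CAGGTG (E-box) or CTTTGAT (TCF/LEF).
Cd3e: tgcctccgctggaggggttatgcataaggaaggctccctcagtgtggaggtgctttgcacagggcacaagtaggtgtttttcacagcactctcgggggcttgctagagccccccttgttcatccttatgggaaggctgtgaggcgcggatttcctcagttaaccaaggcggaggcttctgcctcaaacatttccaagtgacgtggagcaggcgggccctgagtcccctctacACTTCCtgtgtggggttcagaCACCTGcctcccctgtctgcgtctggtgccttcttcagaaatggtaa
Cd3d: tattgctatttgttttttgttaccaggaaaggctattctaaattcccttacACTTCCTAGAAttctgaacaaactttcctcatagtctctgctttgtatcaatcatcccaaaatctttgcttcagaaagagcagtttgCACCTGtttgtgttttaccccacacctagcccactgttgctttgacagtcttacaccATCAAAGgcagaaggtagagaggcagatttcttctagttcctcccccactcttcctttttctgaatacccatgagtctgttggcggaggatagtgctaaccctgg
Cd3g: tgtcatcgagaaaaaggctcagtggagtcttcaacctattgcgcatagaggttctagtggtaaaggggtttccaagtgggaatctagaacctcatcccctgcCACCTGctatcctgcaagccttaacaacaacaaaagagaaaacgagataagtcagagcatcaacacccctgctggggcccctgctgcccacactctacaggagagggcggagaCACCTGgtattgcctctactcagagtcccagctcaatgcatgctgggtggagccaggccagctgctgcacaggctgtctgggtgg
Ubash3a: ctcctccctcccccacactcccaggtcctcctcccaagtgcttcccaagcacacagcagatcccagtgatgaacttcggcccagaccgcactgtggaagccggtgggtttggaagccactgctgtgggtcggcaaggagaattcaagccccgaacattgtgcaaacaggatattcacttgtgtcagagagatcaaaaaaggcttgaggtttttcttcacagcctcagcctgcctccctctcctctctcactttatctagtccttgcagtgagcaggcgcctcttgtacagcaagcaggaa

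Each of the 3 CD3 windows held CAGGTG, and those of Cd3e and Cd3d also held GGAAGT. The Cd3d window held CTTTGAT and a TTCNNNGAA match that overlaps its GGAAGT match. None of the 5 patterns was in the Ubash3a window. Over all 32851 windows of this length, 20.2% held CAGGTG, 23.8% GGAAGT, 16.8% TGTGGT, 8.3% TTCNNNGAA and 3.73% CTTTGAT. Windows were at hand for 19 of the 30 genes, 29 windows in all, since a gene can have several start sites. Of these windows 27.6% held CAGGTG, 31% GGAAGT, 6.9% TGTGGT, 10.3% TTCNNNGAA and 10.3% CTTTGAT, from 7, 6, 2, 3 and 3 genes. The matches are descriptions of letters and say nothing of binding in these cells. Windows of Thy1, Cd7 and Skap1 were not used here.

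Cd3e, the signalling chain found in every CD3 dimer, had log2 intensities of 8.69, 9.07 and 9.53 in untreated replicates 2, 3 and 4. It had 8.43, 8.74, 9.61 and 9.64 in IL2 replicates 1 to 4. The groups overlapped fully, and the low values were untreated replicate 2 and IL2 replicates 1 and 2. The log2 fold change was 0.01 (95% interval -0.79 to 0.80).

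Cd3d had 6.32, 6.65 and 6.92 in untreated replicates 2, 3 and 4 and 6.32, 6.12, 6.87 and 7.03 in IL2 replicates 1 to 4. The same 3 arrays were low, and the log2 fold change was -0.05 (95% interval -0.62 to 0.53). Cd3g had 8.90, 8.58 and 8.84 and then 8.53, 8.78, 9.27 and 9.13 in the same order. Its groups overlapped as well, at a log2 fold change of 0.16 (95% interval -0.27 to 0.59). IL2 replicates 1 and 2 were the lower IL2 arrays for Cd3g too, but untreated replicate 2 was its highest untreated array, unlike for Cd3e and Cd3d.

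The co-receptor genes showed the array pattern of Cd3e. Cd4, the co-receptor of helper T cells that some myeloid cells also carry, had 6.36, 7.48 and 7.94 in untreated replicates 2, 3 and 4. It had 6.47, 6.24, 7.60 and 7.22 in IL2 replicates 1 to 4, a log2 fold change of -0.38 (95% interval -1.41 to 0.65). Untreated replicate 2 and IL2 replicates 1 and 2 were again the low arrays.

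Cd8a, a co-receptor chain of cytotoxic T cells and of some dendritic cells, had 7.01, 7.53 and 7.75 in untreated replicates 2, 3 and 4. It had 7.48, 7.32, 7.93 and 8.25 in IL2 replicates 1 to 4, a log2 fold change of 0.32 (95% interval -0.29 to 0.92). Cd8b1, the chain more restricted to T cells, ranged from 6.58 to 7.72 untreated and from 6.74 to 7.93 with IL2, a log2 fold change of 0.11 (95% interval -0.78 to 1.01). Neither CD8 gene separated the groups, and in both the spread within a group was larger than the difference between them.

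The low arrays were those whose titles leave out the time, and title style is used below as a description only. Titles of replicates 3 and 4 give the 8 h, while the other 3 titles do not. No label says what sets these arrays apart, and this comparison was chosen after the values had been seen. For 12 of the 30 genes every array with the time lay above every array without it, beside 4.84% of all genes. For 0 of the 30 did they lie below, beside 0.932%. The 12 were Cd3e, Cd3d, Cd4, Cd8a, Cd8b1, Cd28, Cd5, Cd6, Themis, Foxp3, Bcl11b and Dapl1.

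**Figure D3:**
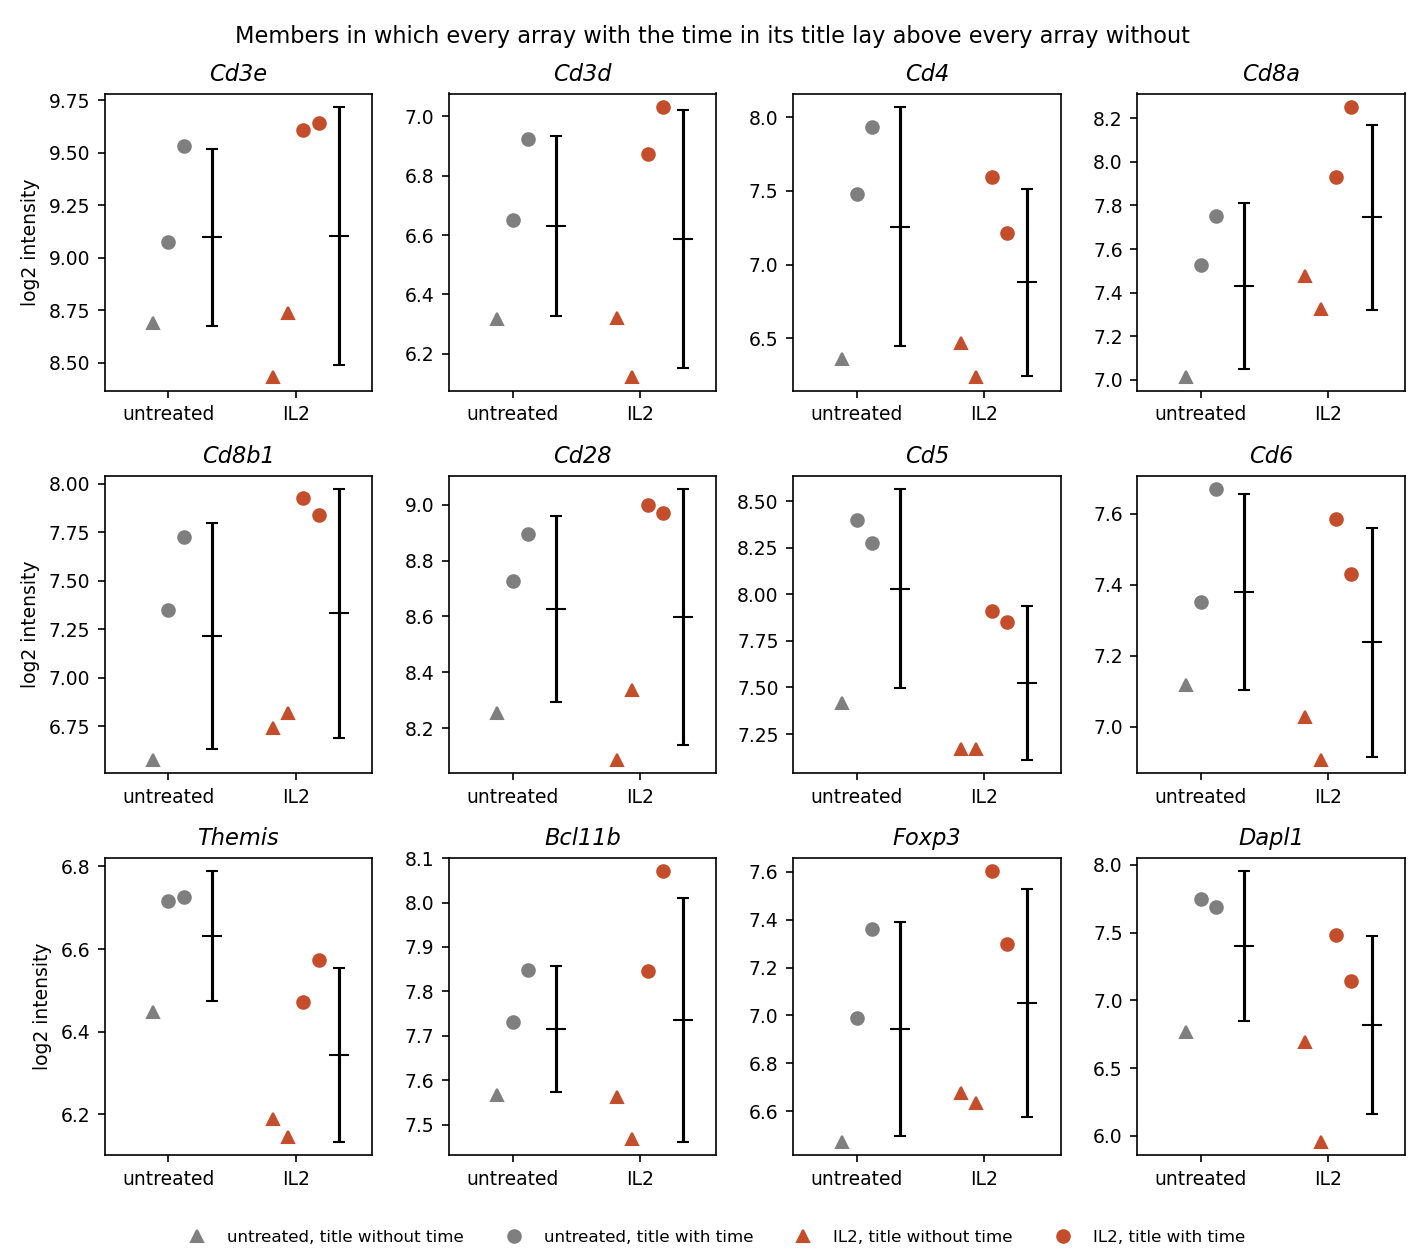
Log2 intensity of the 12 genes in each array, by group, with triangles for titles without the time and circles for titles with it; bars show mean ± SD (n = 3 untreated, 4 IL2). In each panel all circles lie above all triangles, while the groups overlap.

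A fit with IL2 and title style together put numbers on this pattern. Cd4 was higher by 1.17 on the log2 scale (SE 0.16) in the arrays with the time, Cd8b1 by 1.04 (SE 0.11), Dapl1 by 0.97 (SE 0.18) and Cd3e by 0.87 (SE 0.16). Of the 30 genes 26 were higher in the arrays with the time, beside 67.4% of all genes. The median over the 30 genes was 0.31, and over all genes it was 0.07. Of the 30, 0 passed limma's adjusted threshold for title style, beside 0.0203% of all genes called higher and 0.00506% lower. Of the 30, 14 were higher and 0 lower at an unadjusted p under 0.05, beside 8.61% of all genes higher and 427 of the 19752 lower. The limma adjusted p-values of the 12 ran from 0.0726 for Cd5 and Cd8b1 to 0.326 for Bcl11b. After quantile normalization again 4 of the 30 passed the adjusted threshold. Leaving out each array in turn gave 12 to 16 genes with the title styles apart. Genes already apart stay so when an array is dropped, so this count could not fall and is no check on the pattern. The shares of all genes in these settings were not counted, so neither count can be set against all genes.

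With title style in the fit the IL2 differences of these genes had smaller errors. The IL2 difference of Cd5 was -0.37 (SE 0.08, limma adjusted p = 0.0636), where its SE without title style had been 0.29. That of Cd8a was 0.43 (SE 0.11, limma adjusted p = 0.104), and that of Cd8b1 was 0.29 (SE 0.11, limma adjusted p = 0.270). Cd3e had 0.15 (SE 0.16) and Cd4 -0.18 (SE 0.16). In this fit Thy1, Skap1 and Ubash3a were called higher and Cd7 lower, beside 2.93% of all genes higher and 1.25% lower.

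**Figure D4:**
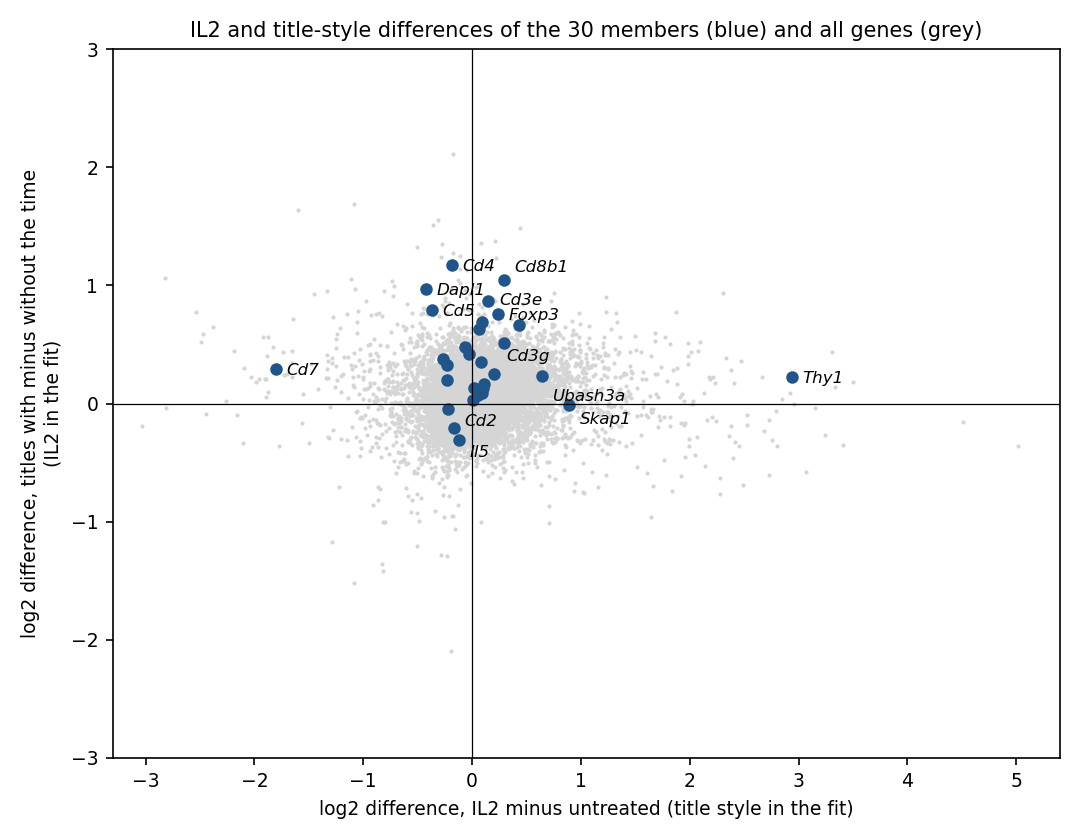
Log2 difference of IL2 minus untreated (horizontal) against that of titles with minus without the time (vertical), both from 1 fit with both terms, for the 30 genes (blue) and all genes (grey). Thy1 and Cd7 lie far out along the IL2 axis, while Cd4, Cd8b1, Dapl1 and Cd3e lie high on the title-style axis and closer to 0 on the IL2 axis.

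Markers of other cell types were compared between the same arrays. In the arrays with the time, 13 of 14 NK cell markers had lower values (median -0.32, 6 of them lower at an unadjusted p under 0.05), beside 67.4% of all genes with higher ones. Higher values were seen for 7 of 10 neutrophil markers (median 0.43; 5 higher and 3 lower at an unadjusted p under 0.05), 9 of 11 monocyte and macrophage markers (median 0.18; 0 and 0) and 6 of 7 erythroid and platelet markers (median 0.23; 3 and 0). The same held for 4 of 11 B cell markers (median -0.13, 2 and 3) and 4 of 8 dendritic cell markers (median -0.03, 2 and 1). At that threshold 8.61% of all genes were higher and 427 of the 19752 lower. Of the 10 neutrophil markers 1 was called higher by title style, beside 0.0203% of all genes. Between IL2 and untreated arrays, the summed intensity of the 30 T cell and innate lymphoid genes, on the log2 scale, was 13.26 to 13.49 untreated and 13.16 to 13.67 with IL2. Linear values were summed, so bright genes weigh most, such as Satb1 (mean log2 11.08 untreated, 11.16 with IL2). Thy1 and Cd7, which moved in opposite directions, are also among the bright genes. The sum therefore does not stand for the CD3 and co-receptor genes. In bulk RNA, fewer cells of a type and less RNA per cell cannot be told apart, and the part of T cell content in the title-style pattern was not tested.

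Markers of NK and other cell types were also compared between IL2 and untreated arrays. Of 14 NK markers, 7 were called higher and 0 lower, beside 2.08% and 0.901% of all genes. The largest rises were Prf1, the pore-forming protein of cytotoxic granules, at 2.83 (SE 0.28), and Nkg7, a granule membrane protein, at 2.27 (SE 0.09). Klrb1c, which encodes the NK1.1 of the labels, rose by 1.70 (SE 0.25). The summed log2 intensity of the 14 NK markers was 13.72 to 14.16 untreated and 14.99 to 15.22 with IL2, with all 14 at or above the median signal.

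Of 11 monocyte and macrophage markers 5 were called lower and 0 higher, beside 0.901% and 2.08% of all genes. The largest falls were those of Adgre1, an adhesion receptor of macrophages, at -2.07 (SE 0.19), and Cd14, the endotoxin co-receptor, at -2.02 (SE 0.30). Of the 11 markers, 9 had negative and 2 positive log2 fold changes. At an unadjusted p under 0.05, 6 of these markers were lower and 1 higher, beside 4.67% and 8.81% of all genes. Their summed log2 intensity went from 13.49 to 13.63 untreated to 11.97 to 12.46 with IL2. Of 10 neutrophil markers, Mmp8, a collagenase, fell by 2.49 (SE 0.25). All 10 had negative log2 fold changes, beside 45.6% positive over all genes. Of them 7 were lower and 0 higher at an unadjusted p under 0.05, beside 4.67% and 8.81% of all genes. S100a9, a calcium-binding alarmin, had -0.95 and was not called. It was called with the replicate number as a block (limma adjusted p = 0.0427), with title style as a block (0.0433) and after quantile normalization again (0.0480). With title style as a block 5 of the 10 neutrophil markers were called lower, beside 1.25% of all genes. Sums went from 13.18 to 13.53 down to 12.36 to 12.80.

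Among 8 dendritic cell markers Cd209a, a lectin, fell by 1.71 (SE 0.14), and Flt3, a growth factor receptor, was 1.99-fold lower and was not called, though it was after quantile normalization again (limma adjusted p = 0.0308). Of the 8 log2 fold changes, 4 were positive and 4 negative, with a median of -0.07, beside 45.6% positive over all genes. Sums were 11.01 to 11.33 untreated and 10.59 to 10.82 with IL2. Of 11 B cell markers, Fcer2a, which encodes CD23, fell by 0.98 (SE 0.15), while Blk, a kinase of B cells, had -0.54 and was called only after quantile normalization again (limma adjusted p = 0.0484). All 11 had negative log2 fold changes. Of them 5 were lower and 0 higher at an unadjusted p under 0.05, beside 4.67% and 8.81% of all genes. Sums were 14.27 to 14.48 untreated and 14.02 to 14.15 with IL2. None of 7 erythroid and platelet markers was called by limma, and 2 were lower at an unadjusted p under 0.05, beside 4.67% of all genes. With title style as a block 1 of the 7 was called higher, beside 2.93% of all genes. The sums of these markers were 11.70 to 12.20 untreated and 11.37 to 11.68 with IL2. The largest differences there were -0.55 for Ppbp and -0.37 for Pf4, chemokines of platelets. How far cell make-up enters the changes of Thy1, Cd7 and Skap1 was not tested.

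**Figure D5:**
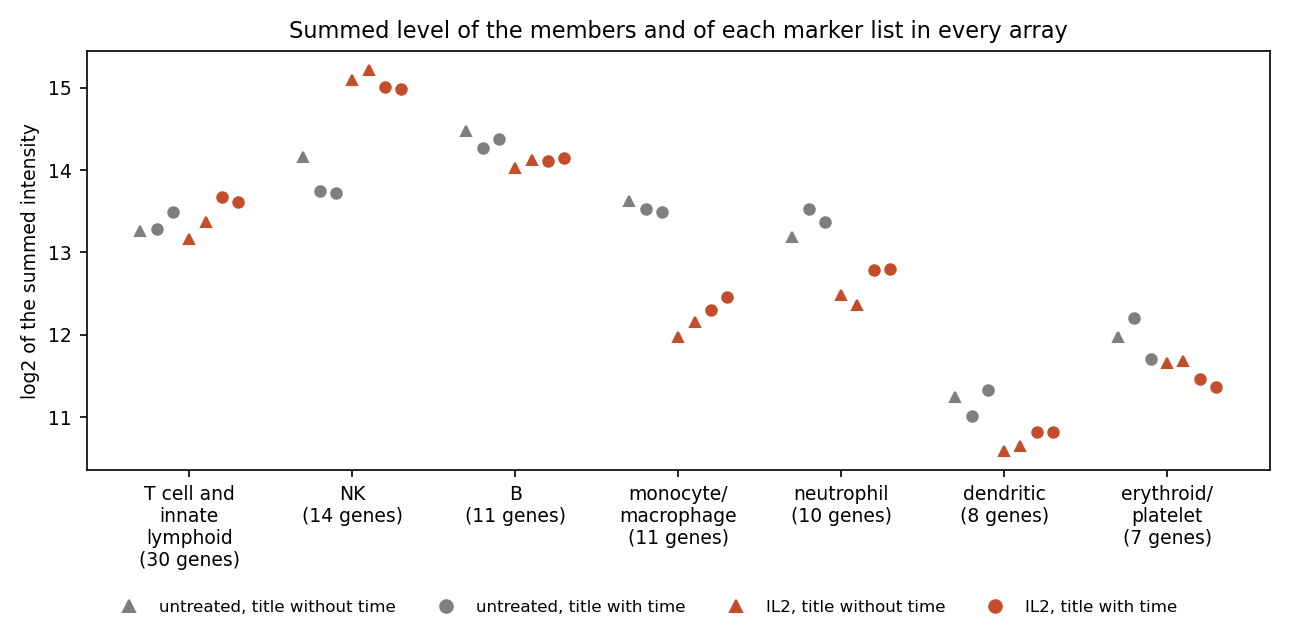
Log2 of the summed intensity of each gene list in each array, grey for untreated and orange for IL2, triangles for titles without the time and circles for titles with it. Heights are to be compared within a list only. NK sums lie higher in all IL2 arrays than in all untreated ones, while the T cell and innate lymphoid sums overlap. The sums of every other marker list lie lower in all IL2 arrays. The gap is small for erythroid and platelet markers (lowest untreated 11.70, highest IL2 11.68). Bright genes weigh most in a sum, Thy1 and Cd7 among them.

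The transcription factor genes were not called. Lef1, a partner of β-catenin in T cell development, had a log2 fold change of -0.33 (95% interval -0.79 to 0.14). Bcl11b, which keeps T cell identity, had 0.02 (-0.34 to 0.38), and Satb1, a chromatin organiser of thymocytes, had 0.08 (-0.19 to 0.35). Foxp3, the factor of regulatory T cells, ranged from 6.47 to 7.36 untreated and from 6.64 to 7.60 with IL2, at 0.11 (-0.57 to 0.79). Ikzf2, which encodes Helios, had 0.01 (-0.15 to 0.16), the narrowest interval of the 30, with equal values in 2 untreated arrays that lower its measured spread. Rora had -0.21 (-0.41 to -0.01), with an unadjusted p of 0.0408 and a limma adjusted p of 0.336.

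The helper cytokine and type 2 innate genes showed no call, and all of them but Dapl1 were dim. Il2 itself, the gene of the added cytokine, had log2 intensities of 5.31, 5.37 and 5.54 in untreated replicates 2, 3 and 4 and 5.37, 5.31, 5.61 and 5.30 in IL2 replicates 1 to 4. Its log2 fold change was -0.01 (95% interval -0.25 to 0.24). Il4 and Il5, cytokines of type 2 immunity, had 0.08 (-0.10 to 0.25) and -0.07 (-0.55 to 0.42). Cd40lg, the helper ligand of CD40, had 0.04 (-0.16 to 0.24), and Il17rb, a receptor chain for IL25, had 0.08 (-0.29 to 0.46).

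Dapl1 ranged from 6.77 to 7.75 untreated and from 5.96 to 7.48 with IL2, a log2 fold change of -0.58 (95% interval -1.48 to 0.31). In all, 8 of the 30 genes had a mean below 6.92, the median over all genes, namely Cd3d, Themis, Trat1, Il17rb, Il2, Il4, Il5 and Cd40lg. The files give no detection call, so that these values may be background. For 23 of the 27 genes not called, the 95% interval lay within 1 log2 unit of 0. It reached further for Cd4, Cd5, Cd8b1 and Dapl1, for which a change of that size cannot be told from these arrays.

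Other genes of antigen receptor signalling, many of which NK cells use below their own receptors, were called in 1 direction. Of 32 analysed, 5 rose and 0 fell by limma, beside 2.08% and 0.901% of all genes, and 13 were higher and 3 lower at an unadjusted p under 0.05, beside 8.81% and 4.67%. The list's median was 0.18, but dropping untreated replicate 3 made it 0.07, dropping untreated replicate 2 made it 0.27, and quantile normalization again made it 0.05. It was 0.35 within the arrays with the time in their title and -0.10 within those without it. Txk, a kinase of the TEC family, went from 9.10 ± 0.53 (SD, n = 3) to 10.50 ± 0.12 (n = 4), a log2 difference of 1.40 (SE 0.22). Prkcq, the protein kinase C theta that signals below the receptor, went from 8.86 ± 0.24 to 10.15 ± 0.08, a log2 difference of 1.29 (SE 0.12; adjusted p by limma 0.00195). Sh2d2a, a T cell adaptor, rose by 0.83 (SE 0.17), and Sla2, an adaptor that lowers receptor signalling, by 0.80 (SE 0.16). Rasgrp1, an activator of RAS, was the other called gene at 0.63 (SE 0.08). The count fell to 3 when untreated replicate 2 or 3 was dropped and to 2 for untreated replicate 4 or IL2 replicates 2, 3 and 4. Sh2d2a and Sla2 lost their calls without any array other than IL2 replicate 1, and Txk did so for untreated replicate 4 and IL2 replicates 2, 3 and 4. Dropping untreated replicate 3 gave 1 gene lower.

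Of 26 other innate lymphoid and T cell subset genes, 4 rose and 2 fell, beside 2.08% and 0.901% of all genes, with a median of 0.00. Id2, a regulator required for NK and other innate lymphoid cells, went from 10.68 ± 0.21 (SD, n = 3) to 12.03 ± 0.06 (n = 4), a log2 difference of 1.35 (SE 0.11; adjusted p by limma 0.00114). Runx3, a factor of cytotoxic lymphocytes, rose by 1.15 (SE 0.18), Icos, an inducible co-stimulatory receptor, by 1.10 (SE 0.10), and Klrg1, an inhibitory lectin receptor, by 0.90 (SE 0.16). Il7r, the interleukin 7 receptor chain, went from 9.86 ± 0.17 to 8.14 ± 0.34, a log2 difference of -1.71 (SE 0.19; adjusted p by limma 0.00415). S1pr1, the receptor for exit from lymphoid tissue, had -0.87 (SE 0.11, limma adjusted p = 0.00716). Id2, Icos, Il7r and S1pr1 were called with each array left out. The genes higher numbered 3 when untreated replicate 2 or 3 was dropped and 2 for IL2 replicates 2, 3 and 4. Runx3 failed the threshold in each of these 5 cases, and Klrg1 failed it for untreated replicate 4 and IL2 replicates 2, 3 and 4.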

How the data were processed

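For every array the authors deposited an intensity for each transcript cluster. The submitters' processing notes name RMA and Affymetrix Power Tools. Which arrays were normalized together, and with which settings, is not given in the sources used here. These deposited intensities are linear, with array medians of 121 to 131, and were taken to log2 with no offset. The number of arrays limits the precision. Of 24922 probes, the 21425 with 1 symbol were kept, and the brightest per gene left 19752 genes. Groups came from the sample titles. The 7 arrays were fitted with 1 factor in limma 3.58.1 under R 4.3.3 (lmFit, eBayes, 7.68 degrees of freedom), with Benjamini-Hochberg correction over all genes, two-sided, at 0.05. The fit was tested on simulated data. Equal values in arrays of 1 group, which lower the measured spread, occurred for 38.8% of genes, 5 of the 30 genes described and 0 of their called ones.

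The genes, lists, tests and rules were chosen with earlier results of these data known. Named were all 30 genes, up to 4 called genes per direction of both further lists and the 2 largest changes per marker list. Values in every array were given for called or separated genes, the CD3 chains, Cd4, Cd8a and Il2. Named outside that rule, after their values were seen, were Klrb1c and Rasgrp1 and the genes under other observations. Some genes of the further lists are not reported here. Alternatives were a replicate or title-style block, each title style alone, quantile normalization again, centring, a signal filter, eBayes with trend and robust, the mean of all probes, and leaving out each array. The title-style comparison was added after the data were seen.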

Additional observations from a re-analysis of the deposited data

Results flagged for a closer look

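In the IL2 group, 52 genes were checked for an array that stands apart by Dixon's criterion, and 3 had one. IL2 replicate 3 had the highest Il4 value, 6.389 against 6.281 in the next array, and the lowest Il5 value, 4.670 against 5.402. IL2 replicate 2 had the highest Klrg1 value, 8.599 against 8.407. Chance alone is thought to give about 1 in 20 such groups.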

How the results depend on the processing

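Within 16 alternative settings, Thy1 kept its call in 15 and Cd7 in 14, and both kept their direction in all. The other setting for Thy1 was the 3 arrays without the time in their titles, where the spread of the single untreated array was assumed equal to that of the IL2 arrays. Over these arrays limma called 0 genes higher and 0 lower in each list and over all genes. Over the 4 arrays with the time it called 81 genes higher and 22 lower, 1 and 0 of the 30 T cell and innate lymphoid genes, 0 and 0 signalling genes, and 1 and 0 other subset genes. Quantile normalization again gave 694 genes higher and 577 lower, 3 signalling genes lower, and 4 of the 30 genes higher by title style. A title-style block and the signal filter each gave 1 signalling gene lower. With each array left out, the counts higher and lower were 134 to 517 and 65 to 152 over all genes, 1 to 2 and 1 of the 30 genes, 2 to 5 and 0 to 1 signalling genes, and 2 to 4 and 2 subset genes. For title style the same gave 12 to 16 genes apart, 0 genes at the adjusted and 13 to 17 at the unadjusted threshold. The count of genes apart cannot fall when an array is dropped, so it is no check. Shares of all genes by title style were not counted after quantile normalization again or with arrays left out. The cause of these shifts was not tested. Of the 27 genes not called, 18 changed sign in at least 1 setting, and 1, Ubash3a, was called in any. The replicate number as a block gave 554 genes higher and 184 lower and 2 and 1 of the 30 genes. IL2 replicate 1 has no untreated array of its number, so it added nothing to the IL2 differences of that fit. The numbers are not known to pair arrays, since deviations of same-numbered arrays correlated at 0.46, -0.299 and 0.308 and untreated replicate 3 correlated best with IL2 replicate 1 (0.454). Dim probes limit the 8 genes below the median signal, Cd3d and Themis of the title-style genes among them.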

Other observations

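Several lymphoid genes outside the calls had arrays apart between the groups, and they were named after their values were seen. Zap70, a kinase of antigen receptor and NK receptor signalling, was higher with IL2 by 0.84 (log2; SE 0.24; adjusted p = 0.145 by limma), and Cd247, the zeta chain that NK receptors also use, had 0.41 (SE 0.12, limma adjusted p = 0.162). Ahr, the aryl hydrocarbon receptor, had 1.05 (SE 0.23, limma adjusted p = 0.0628), and Gata3, a factor of type 2 innate lymphoid and helper T cells, had 0.78 (SE 0.22, limma adjusted p = 0.143). Fyn, a kinase of the SRC family, had 0.61 (SE 0.21), and Il23r, an interleukin 23 receptor chain, had 0.29 (SE 0.14), neither called. Il23r was below the median signal and may be background, and its groups were barely apart (lowest IL2 array 6.76, highest untreated 6.73). These 6 were chosen because every IL2 array lay above every untreated array. With the called genes, this was so for 8 of 32 signalling genes and 7 of 26 subset genes, beside 6.25% of all genes. Fyb, an adaptor that binds SKAP1, had -0.55 (SE 0.13, limma adjusted p = 0.0728), and Il6ra, the interleukin 6 receptor chain, had -0.86 (SE 0.22, limma adjusted p = 0.106). Dgka, a diacylglycerol kinase, had -0.49 (SE 0.15), Tec, the namesake of its kinase family, had -0.26 (SE 0.09), and Ccr7, a homing receptor for lymph nodes, had -0.33 (SE 0.12), none called. These 5 were chosen because every IL2 array lay below every untreated array. With the called genes, this was so for 3 of 32 signalling genes and 4 of 26 subset genes, beside 3.38% of all genes.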
